A study of Mus musculus with 10 samples.

Results

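The cytosolic ribosomal protein genes were compared between platelets of 7-day-old and adult mice. They are the genes named Rpl or Rps whose proteins form the large and the small subunit of the ribosome in the cytoplasm. Members were taken by symbol alone, and 85 of 53819 gene symbols matched, 52 of the large and 33 of the small subunit. The rule reads symbols and no measured value, but this set of genes was picked for description with earlier results of these data known. The P7 label of the younger mice is read as postnatal day 7. Each age has 5 libraries, lettered A, B, C, E and I for the young mice and A, B, C, G and H for the adults. Neither a genotype nor a treatment is stated in the labels, and they name no strain, no sex and no age in days for the adults. Nor do they tell whether libraries stem from separate or pooled animals, so that each p-value rests on the spread between libraries, part of which may be technical. Libraries were made from 1 ng of total RNA, and the deposited values are read counts per gene.

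A ribosome is built from ribosomal RNA and ribosomal proteins, with most of the proteins present once in each ribosome. The small subunit binds the mRNA and reads its codons, and the large subunit joins the amino acids and passes the growing chain through an exit tunnel. Ribosomal protein mRNAs are among the most abundant mRNAs of growing cells and carry a terminal oligopyrimidine (TOP) motif, a run of C and T at their start, through which the kinase mTOR and the protein Larp1 control their translation. Platelets have no nucleus and carry ribosomes and mRNA left by the megakaryocyte, and the youngest platelets hold the most RNA.

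Total counts were 19431863 to 25029931 at P7 and 19541997 to 23291269 in adults. Platelet markers were high in every library: the 15 listed, Pf4, Ppbp and Itga2b among them, together reached 63197 to 91500 CPM at P7, against 60743 to 92554 CPM in adults, where CPM is the TMM-scaled count relative to the library's total. Over all 8198 genes that passed edgeR's filter on low counts, 1132 (13.8%) were higher in young mice and 1140 (13.9%) lower, by edgeR's quasi-likelihood test at an adjusted p under 0.05. The median log2 fold change of these genes, P7 over adult, was 0.05.

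Many ribosomal protein genes were higher at P7, in both subunits, with a larger median change in the small one. Of 75 members tested, 36 passed as higher and 0 as lower, against 13.8% and 13.9% of all genes. In the large subunit 18 of 43 rose, with a median log2 fold change of 0.68 over the 43. In the small subunit 18 of 32 rose, with a median of 1.02 over the 32. Fitted changes were above 0 for 67 of the 75, although 39 of these 75 did not pass the test. P7 and adult libraries did not overlap for 29 members, all with P7 above (16 large, 13 small), while 10.1% of all tested genes had P7 above and 9.76% had P7 below without overlap. The difference between the subunits was not tested.

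**Figure D1:**
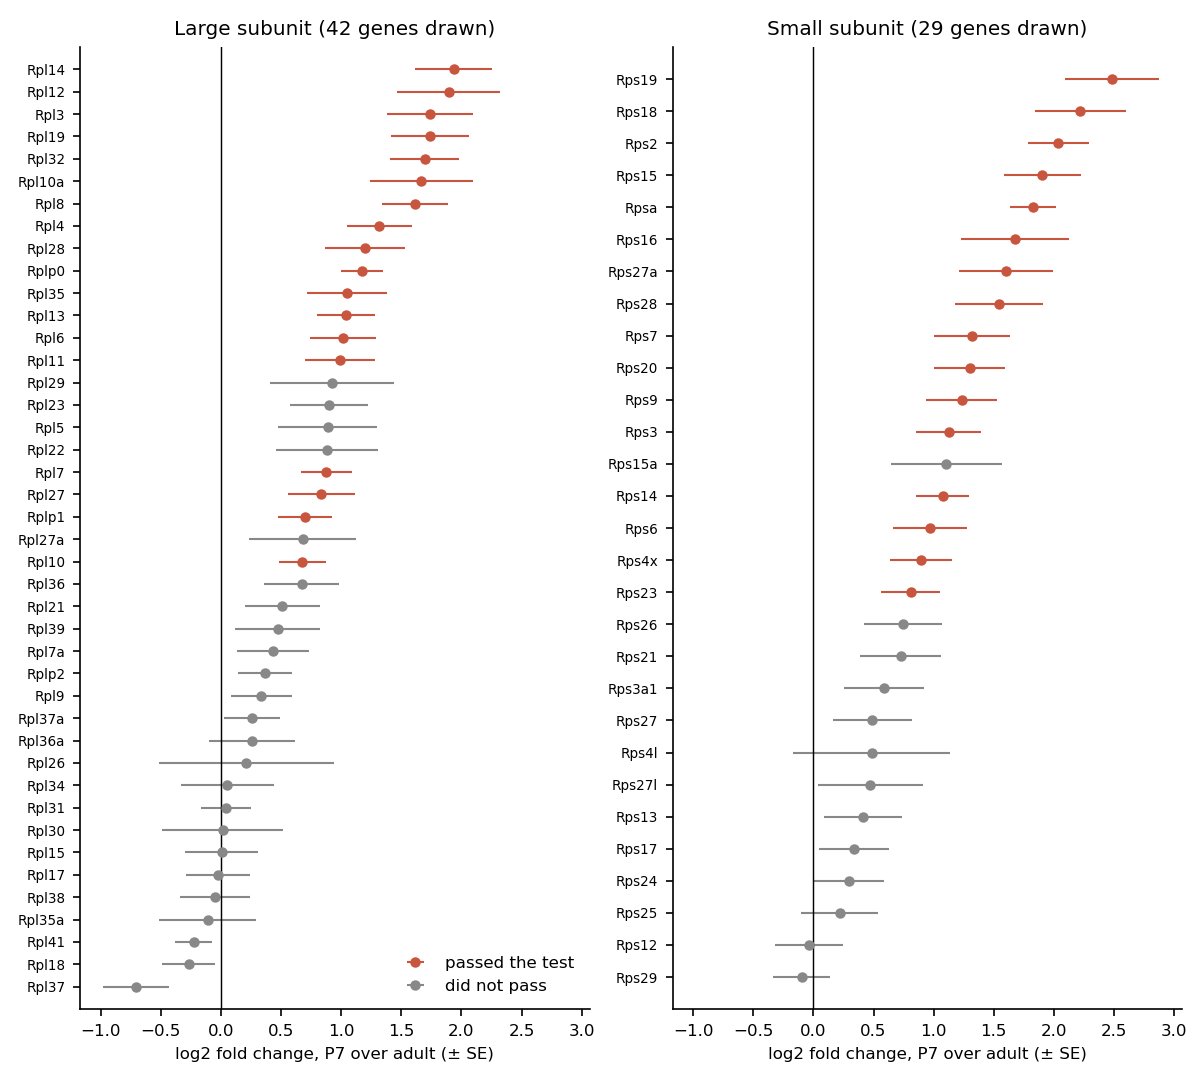
Log2 fold change, P7 over adult, with its SE (horizontal axis) for tested large subunit genes (left, 42 drawn of 43) and small subunit genes (right, 29 drawn of 32), sorted by size. Red genes passed edgeR's test and grey genes did not. Every red point lies to the right of 0, and the scale runs from Rpl37 at -0.71 to Rps19 at 2.48.

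Members were low in CPM, which is not scaled by transcript length. The median over the 75 was 2.44 CPM, against 3.97 CPM over all tested genes, and 65 of the 75 had a mean under 10 CPM. The median transcript was 851 bases long for members and 2800.5 bases for all tested genes, so the order of these medians need not hold per kilobase. Among these 65, 29 rose and 0 fell, and among the 10 members of at least 10 CPM, 7 rose and 0 fell. All genes under 10 CPM gave 660 higher and 475 lower of 5396, and all genes of at least 10 CPM gave 472 higher and 665 lower of 2802. GC content of the transcript also moved with age over all genes: its Spearman correlation with the log2 fold change was 0.28 across 8028 genes, which are not independent replicates. Across the 75 members it was 0.18. Among genes with both a mean under 10 CPM and a GC content of 48 to 56%, 13.7% of 2279 were higher and 6.8% lower, and of the 43 members in that class 21 were higher and 0 lower. With the GC trend of each library removed, 10.2% of all genes were higher and 15.1% lower. In that fit 15 of 43 large subunit genes were higher and 1, Rpl41, was lower (log2 fold change -0.54, the lowest of its 22 alternatives), and 17 of 32 small subunit genes were higher and 0 lower. The medians were then 0.56 and 0.86. Of the 36 members called without this step, 31 kept their call, and Rpl35, Rps6, Rpl11, Rplp1 and Rpl27 lost it.

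Markers of other blood cells also moved with age. Of 14 tested erythroid genes 5 were higher at P7 and 0 lower, and their sum over 25 genes ran from 983 to 2557 CPM at P7, against from 583 to 1778 CPM in adults, with overlap. The defining erythroid genes Slc4a1 and Klf1 had 30 and 53 counts over the 5 P7 libraries and 0 in adults. With the erythroid level as a covariate, 0 of the 36 members passed, 13 of 75 members had an unadjusted p under 0.05, and over all genes 21 were higher and 50 lower. Fitted changes stayed above 0 for 67 members, with medians of 0.57 and 0.95. The level used as covariate was the mean log2 CPM over the 14 tested erythroid genes, not the sum over 25. Age explained 76.3% of the variance of that mean. Neutrophil markers summed to 43.4 to 79.5 CPM at P7, against 13.6 to 36.8 CPM in adults, without overlap, most of it Trem1. Of 3 neutrophil genes tested, Trem1 and Prtn3 were higher and 0 lower. Among those too low to test, summed counts at P7 and in adults were 28 and 0 for Mpo, 27 and 0 for Ltf, 25 and 0 for Ngp, 270 and 2 for Padi4, 67 and 12 for S100a8 and 71 and 19 for S100a9, and Ly6g and Cxcr2 had 0 in each library. Levels of Padi4, Ltf and Ngp were uneven between P7 libraries, at 0 to 10.5, 0 to 0.959 and 0 to 0.62 CPM. B cell markers summed to 9.42 to 29.1 CPM at P7, against 5.68 to 7.50 CPM in adults. The sums overlapped between the ages for monocyte markers (2641 to 5628 and 4155 to 9721 CPM), T and NK cell markers (11.2 to 18.4 and 15.8 to 24.7 CPM) and general leukocyte markers (3203 to 4411 and 2891 to 4507 CPM). Within these lists Coro1a of the general leukocyte markers was higher at P7 by 2.08 on the log2 scale, without overlap, while Laptm5 and Arhgdib, which made up most of that sum, did not pass. The monocyte gene Lyz2 fell by 0.66 and the NK cell gene Nkg7 fell by 1.38, both with overlap, and the B cell gene Ighm rose by 1.47. Nearly all of the monocyte sum came from Lyz2 (mean 2765 CPM in young mice, 4363 in adults) and F13a1 (mean 1135 in young mice, 2166 in adults). F13a1 did not pass. Of the other monocyte markers Fcgr1 had the highest mean, 1.80 CPM in young mice, against 1.18 in adults. The part of the neutrophil, B cell and other leukocyte markers in the ribosomal result was not tested. In bulk libraries, fewer cells of a type and less RNA per cell cannot be told apart.

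The start sites of 9 members are shown because they hold, or lack, a C and T run near the start like that of a TOP motif. Each window has 20 bases before the annotated start and 20 from the start on, from RefSeq on GRCm38.p6, read 5′ to 3′ on the gene's own strand, with the longest run of C or T near the start in capitals.
Rps18: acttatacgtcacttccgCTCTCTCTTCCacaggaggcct
Rps9: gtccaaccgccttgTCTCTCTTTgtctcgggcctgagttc
Rpl14: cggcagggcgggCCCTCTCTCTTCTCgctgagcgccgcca
Rpl4: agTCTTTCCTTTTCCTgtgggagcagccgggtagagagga
Rpl34: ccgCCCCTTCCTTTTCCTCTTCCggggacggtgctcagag
Rpl27a: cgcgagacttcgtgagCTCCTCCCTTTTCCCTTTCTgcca
Rps2: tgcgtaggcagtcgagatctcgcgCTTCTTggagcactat
Rplp0: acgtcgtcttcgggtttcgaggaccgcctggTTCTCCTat
Rpl41: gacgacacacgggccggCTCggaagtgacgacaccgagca
The windows lie at chr17:33955646-33955685 (Rps18, minus strand), chr7:3704021-3704060 (Rps9, plus), chr9:120571497-120571536 (Rpl14, plus) and chr9:64173367-64173406 (Rpl4, plus). The others are at chr3:130730318-130730357 (Rpl34, minus), chr7:109519175-109519214 (Rpl27a, plus), chr17:24720043-24720082 (Rps2, plus), chr5:115559447-115559486 (Rplp0, plus) and chr10:128549149-128549188 (Rpl41, minus). Each covers the end of the promoter and the beginning of the gene's transcript.

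Runs of 8 or more C or T bases that overlap the 15 bases on either side of the start, on the gene's strand, were present in 31 of 63 members with a RefSeq entry (49.2%) and in 5509 of 27025 genes with an entry (20.4%). Rps18, Rps9, Rpl14 and Rpl4 hold such a run and rose, and Rpl34 and Rpl27a hold runs of 20 bases and did not pass. Rps2 and Rplp0, with runs of 6 and 7 bases in their windows, rose. Of 28 tested members with the run, 10 were higher, with a median log2 fold change of 0.59. Of 27 without it, 16 were higher, with a median of 0.90. Over all tested genes, 202 of 1392 with the run and 676 of 4989 without it were higher. A match is a description of letters, and an annotated start can differ from the start used in platelets. Some runs, such as that of Rpl4, lie wholly before the annotated start and so outside the annotated mRNA.

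In the stalk, the flexible arm of the large subunit that recruits translation factors, 3 of 4 genes rose. Rplp0, which encodes the base of the stalk, had 104, 154, 188, 133 and 148 CPM in P7 A, B, C, E and I, against 57.5, 64.9, 81.4, 57.3 and 61.2 CPM in adult A, B, C, G and H. Each P7 library lay above each adult library, with P7 A the lowest of its age and adult C the highest. Rplp0 rose 2.25-fold, by 1.17 ± 0.17 on the log2 scale (SE; adjusted p = 0.000255 in edgeR). Rpl12, at the same base, rose by 1.89 ± 0.43, from 0.517 ± 0.181 CPM in adults to 1.94 ± 0.871 CPM at P7 (SD, n = 5 each).

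Rplp1 and Rplp2 encode the acidic proteins that hang from Rplp0. Rplp1 had 32.4, 57.6, 64.8, 54.7 and 44.9 CPM in the P7 libraries and 35.7, 39.9, 36.3, 21.9 and 22.8 CPM in the adult ones. The groups overlapped through P7 A, which lay below adult A, B and C. Rplp1 passed the test at 0.70 ± 0.22 (SE; adjusted p = 0.0307 in edgeR), and lost its call without P7 B, C or E or without adult G or H. Rplp2 was at 0.37 ± 0.23 (SE; adjusted p = 0.251 in edgeR) and did not pass.

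Rpl4 encodes a protein that lines the exit tunnel. It had 14.0, 13.5, 25.7, 25.3 and 18.2 CPM at P7, against 4.06, 7.01, 10.3, 8.70 and 8.72 CPM in adults. The ages did not overlap, with P7 A and B lowest at P7 and adult A lowest in adults. The log2 fold change of Rpl4 was 1.32 ± 0.27 (SE; adjusted p = 0.0024 in edgeR). Of the 9 tested genes whose proteins line or surround the tunnel, Rpl4, Rpl19 and Rpl35 rose and 0 fell, with a median log2 fold change of 0.47 over the 9.

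Rpl37, a zinc-binding protein gene of this tunnel group, had the lowest fitted change of all 75. It had 3.82, 6.72, 4.98, 6.76 and 9.77 CPM at P7, against 8.07, 9.37, 15.4, 7.93 and 11.6 CPM in adults. P7 I lay among the adult libraries and the other P7 libraries below them. Its log2 fold change was -0.71 ± 0.27 (SE; adjusted p = 0.0672 in edgeR), and it passed as lower in DESeq2, without P7 I, without adult G and in both fits of the letters A, B and C.

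Near the catalytic centre of the large subunit, Rpl3 and Rpl8 encode proteins that contact the peptidyl transferase RNA. Rpl3 had 3.30, 3.46, 5.55, 5.12 and 2.65 CPM at P7, against 0.573, 1.07, 0.877, 2.14 and 1.32 CPM in adults, and its log2 fold change was 1.74 ± 0.36 (SE; adjusted p = 0.00253 in edgeR). Rpl8 had 4.22, 3.36, 5.87, 6.68 and 6.94 CPM at P7, against 2.0, 1.59, 1.80, 2.10 and 1.32 CPM in adults, and rose by 1.61 ± 0.27 on the log2 scale (SE; adjusted p = 0.000622 in edgeR). Neither gene had an adult library as high as its lowest P7 library. Rpl10, whose protein joins the subunit last and readies it for translation, rose by 0.68 ± 0.20, with overlap of the ages (12.2 to 19.7 CPM at P7, 8.31 to 12.9 CPM in adults). Without P7 E, adult A or adult G, Rpl10 did not pass.

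Rpl14 rose most in the large subunit. It had 4.27, 2.32, 6.23, 4.80 and 4.52 CPM at P7, against 0.907, 0.731, 1.17, 1.54 and 1.43 CPM in adults. The ages did not overlap, and P7 B lay well below the other P7 libraries. The log2 fold change of Rpl14 was 1.94 ± 0.32 (SE; adjusted p = 0.000534 in edgeR). Rpl19 (1.74 ± 0.32), Rpl32 (1.69 ± 0.28) and Rpl10a (1.66 ± 0.43), which encodes the protein of the stalk beside the tRNA exit site, also rose without overlap of the ages. Other large subunit genes that rose were Rpl28 at 1.20, Rpl13 at 1.04, Rpl6 at 1.02 and Rpl7 at 0.88 on the log2 scale.

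Rpl5 and Rpl11 encode the proteins that bind 5S ribosomal RNA and, when free of the ribosome, the p53 regulator Mdm2. Rpl11 had 2.7 to 5.57 CPM at P7, against 1.24 to 2.58 CPM in adults and rose by 0.99 ± 0.29 (SE; adjusted p = 0.0209 in edgeR), but did not pass without P7 C, P7 I or adult A. Rpl5, at 0.867 to 2.45 CPM at P7, against 0.487 to 1.41 CPM in adults, was at 0.89 ± 0.41 (SE; adjusted p = 0.123 in edgeR) and did not pass.

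Rpl41 encodes the shortest ribosomal protein, of 25 residues, and ranked beside Rplp0 in CPM. It had 87.0, 105, 87.2, 90.9 and 111 CPM at P7, against 91.5, 125, 117, 93.8 and 136 CPM in adults. The ages overlapped, with adult H highest. The log2 fold change of Rpl41 was -0.23 ± 0.16 (SE; adjusted p = 0.305 in edgeR), and it did not pass. Other abundant large subunit genes that did not pass were Rpl37a at 0.26 ± 0.24 and Rpl31 at 0.04 ± 0.21 (SE).

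In the small subunit, all 3 genes whose proteins form the mRNA entry, Rps2, Rps3 and Rps9, rose. Rps2 had 10.2, 16.7, 22.8, 17.4 and 14.4 CPM at P7, against 4.25, 5.72, 3.56, 3.08 and 3.21 CPM in adults. The lowest P7 library, A, lay above the highest adult library, B. Rps2 rose 4.10-fold, by 2.04 ± 0.25 on the log2 scale (SE; adjusted p = 6.07e-05 in edgeR). Rps9 rose by 1.23 ± 0.30 without overlap of the ages, and Rps3 by 1.12 ± 0.27 with overlap.

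Of the 4 genes of the mRNA exit, Rpsa, Rps14 and Rps28 rose, and Rps26 was at 0.74 ± 0.33 and did not pass. Rpsa, which encodes a small subunit protein also known as the laminin receptor, had 15, 22.1, 23.6, 23.4 and 17.7 CPM at P7, against 5.63, 6.70, 5.95, 5.27 and 5.16 CPM in adults. The ages were far apart, and the adult libraries lay close together, at 5.74 ± 0.62 CPM (SD, n = 5). Rpsa rose 3.54-fold, by 1.82 ± 0.19 on the log2 scale (SE), with the smallest adjusted p of all members (2.01e-05 in edgeR). Rps14, the most abundant small subunit gene by mean CPM, had 14.5, 22.3, 28.2, 21 and 20.4 CPM at P7, against 7.68, 10.3, 11.0, 7.97 and 13.5 CPM in adults, and rose by 1.08 ± 0.22 (SE; adjusted p = 0.00238 in edgeR). Its lowest P7 library, A, lay above its highest adult library, H.

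Rps19 rose most of all members. Its protein sits in the head of the small subunit, and RPS19 is the gene most often mutated in Diamond-Blackfan anaemia, an inherited failure of red cell production. Rps19 had 3.38, 3.56, 12.6, 6.44 and 11.5 CPM at P7, against 1.15, 1.07, 1.22, 1.93 and 1.32 CPM in adults. The ages did not overlap, but P7 C and I were over 3 times as high as P7 A and B. The log2 fold change of Rps19 was 2.48 ± 0.39 (SE; adjusted p = 0.000406 in edgeR). Of 17 tested genes linked to this anaemia, Rps19, Rps7, Rps28, Rpl11, Rpl27 and Rpl35 were higher and 0 lower, with a median log2 fold change of 0.49, below the 0.83 of all 75 members. Rpl35 did not pass without P7 B, C or E or without adult A or H, and Rpl27 did not pass when any library other than P7 A was left out.

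Rps18 and Rps15 encode head proteins near the decoding site. Rps18 had 1.33, 1.60, 2.97, 2.16 and 2.56 CPM at P7, against 0.573, 0.430, 0.439, 0.257 and 0.574 CPM in adults, and Rps15 had 3.1, 3.77, 4.30, 5.20 and 2.92 CPM at P7, against 1.19, 1.59, 0.682, 0.643 and 1.03 CPM in adults. Neither gene's ages overlapped. Their log2 fold changes were 2.22 ± 0.38 for Rps18 and 1.90 ± 0.32 for Rps15 (SE). Rps16 rose by 1.68 ± 0.45 and Rps20 by 1.30 ± 0.30.

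Rps27a encodes ubiquitin fused to a ribosomal protein, and it rose by 1.60 ± 0.39, from 0.334 to 1.20 CPM in adults to 1.5 to 3.51 CPM at P7. Rps6, the ribosomal substrate of the S6 kinases, was at 2.01 to 4.32 CPM at P7, against 1.16 to 2.06 CPM in adults. The ages overlapped through P7 B and adult G. It passed at 0.97 ± 0.31 (SE; adjusted p = 0.0283 in edgeR), and did not pass without P7 C, E or I or without adult A or B. Rps23, of the decoding centre, rose by 0.81 ± 0.24 and did not pass without P7 C, P7 I or adult B.

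Rps29, a short zinc-binding head protein gene, had 12, 17.5, 17.6, 10.8 and 16 CPM at P7, against 15, 21, 19.6, 9.42 and 13.9 CPM in adults. The ages overlapped throughout. Its log2 fold change was -0.10 ± 0.24 (SE; adjusted p = 0.791 in edgeR). Rps12, at -0.04 ± 0.29, was the other small subunit gene with a fitted change under 0. Abundant small subunit genes that did not pass were also Rps3a1 at 0.59 ± 0.33 and Rps24 at 0.29 ± 0.30 (SE).

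**Figure D2:**
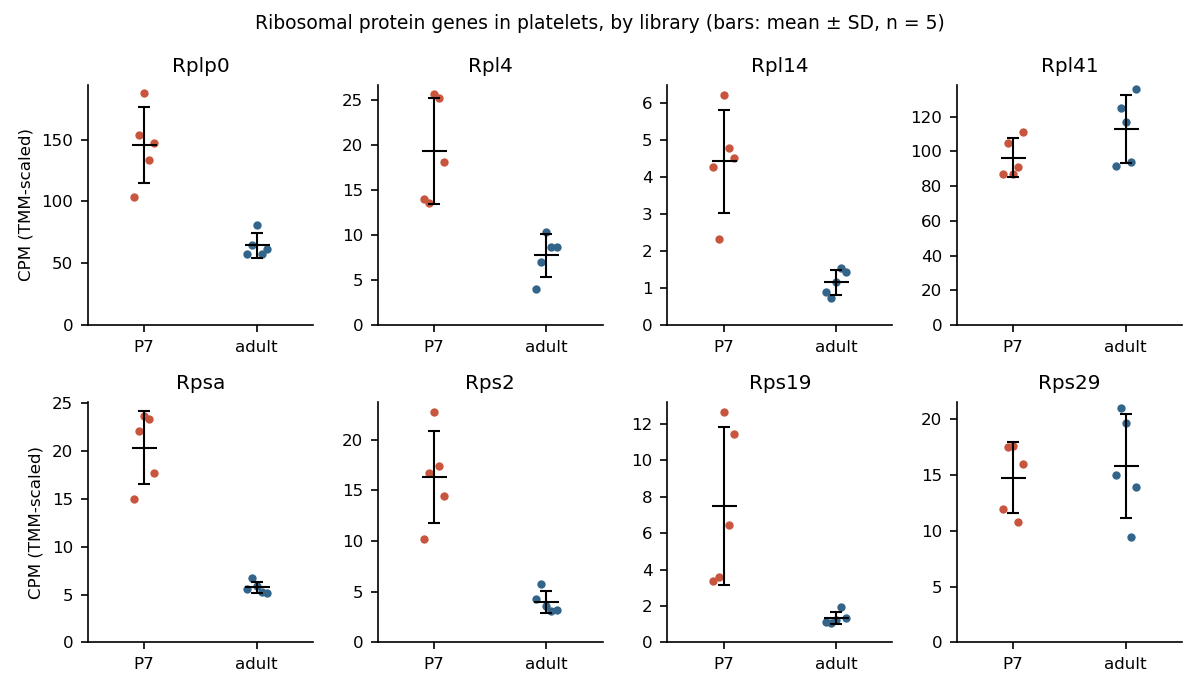
TMM-scaled CPM (vertical axes, each from 0) of 8 members in each P7 library (red) and adult library (blue), with the mean and SD over 5 libraries in black. The ages are apart for Rplp0, Rpl4, Rpl14, Rpsa, Rps2 and Rps19 and overlap for Rpl41 and Rps29, as at 87.0 to 111 and 91.5 to 136 CPM for Rpl41.

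Compared per kilobase of transcript, the levels of members differed widely. Rpl41 was highest at P7, at 165 CPM per kilobase, ahead of Rplp0 at 107 and Rplp1 at 102, and in adults these were at 194, 47.5 and 62.8. Rps29 stood at 37.9 CPM per kilobase at P7 and 40.5 in adults, and Rps14 at 31.9 and 15.1. At the other end, 10 members did not pass the filter. Rpl13a had 20 counts over the P7 libraries and 17 over the adult ones, Rpl24 had 6 and 2, and Rps10 had 6 and 4, although each encodes a core protein of its subunit. Rpl23a had 53 and 26 counts, Rpl36al 23 and 18, Rpl32l 20 and 50, and Rpl3l, the form of striated muscle, 3 and 5. Rpl10l, Rpl39l and Rpl6l had 0 counts in each library, which allows up to 0.120 to 0.172 CPM per library (3 counts, counting error only). Rpl6l and Rpl32l are annotated as processed pseudogenes in GENCODE M21, and Rps4l, tested at 0.48 ± 0.65 (SE), as a transcribed one.

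Many members share sequence with other genes. The share of 75-base stretches of a member's transcript that no other GENCODE M21 gene holds ran from 1.48% in Rps27 to 100% in Rps3, which rose by 1.12, among tested members. Of 11 tested members with at least 90% unique stretches 6 rose and 0 fell (median 1.12), and of 16 under 25% 7 rose and 0 fell (median 0.58). Rps27 (0.49 ± 0.33) and its near copy Rps27l (0.47 ± 0.44), which is induced by p53, did not pass, nor did Rpl36a (0.26 ± 0.36). The sources used here do not give how reads that fit several genes were counted, so levels of members with few unique stretches are uncertain.

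Rows named as ribosomal protein pseudogenes numbered 322, of which 240 had 0 counts in all 10 libraries. Their sum was 16.1 to 29.4 CPM at P7, against 32.9 to 56.4 CPM in adults, without overlap, but a single row, Rpl31-ps15, gave most of the adult sum. Without it, a step chosen after seeing the data, the other rows summed to 8.13 to 22.7 CPM at P7, against 6.14 to 13.1 CPM in adults, with overlap. Of 4 tested, Rps27a-ps1 fell by 3.74 on the log2 scale, Rpl31-ps15 fell by 1.85, and Rps2-ps13, named as a copy of Rps2, rose by 1.77. Rps27a-ps1 was near the floor at P7, at a mean of 0.324 CPM against 4.38 CPM in adults. It passed the filter on low counts through its adult libraries.

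The share of all counts that fell on the 85 members was 0.0499, 0.0652, 0.0776, 0.0763 and 0.0672% in P7 A, B, C, E and I, against 0.0338, 0.0469, 0.0483, 0.0365 and 0.0399% in adult A, B, C, G and H. The ages did not overlap, by a narrow margin between P7 A and adult C. The mean share was 1.64 times as high at P7. For large subunit genes the shares overlapped (0.0374 to 0.0558% at P7, 0.0269 to 0.0384% in adults), and for small subunit genes they did not (0.0125 to 0.0218% and 0.00685 to 0.0106%). Rplp0, Rpl41 and Rplp1 together held 40.5 to 48.3% of the members' counts at P7 and 47.5 to 52.2% in adults.

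Large subunit counts exceeded small subunit counts in every library, by a factor that differed with age. The ratio of the sums was 2.99, 2.89, 2.56, 2.55 and 2.66 at P7 and 3.93, 3.44, 3.87, 3.70 and 3.88 in adults. Each P7 ratio lay below each adult ratio, and the means were 2.73 ± 0.201 and 3.76 ± 0.201 (SD, n = 5 each). Without Rplp0, Rpl41 and Rplp1, an alternative chosen after seeing the data, the ratio was 1.06 ± 0.0507 at P7 and 1.39 ± 0.113 in adults, again without overlap (1.01 to 1.11 and 1.21 to 1.48). As members were chosen with results known, the shares and ratios are descriptions with no test.

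**Figure D3:**
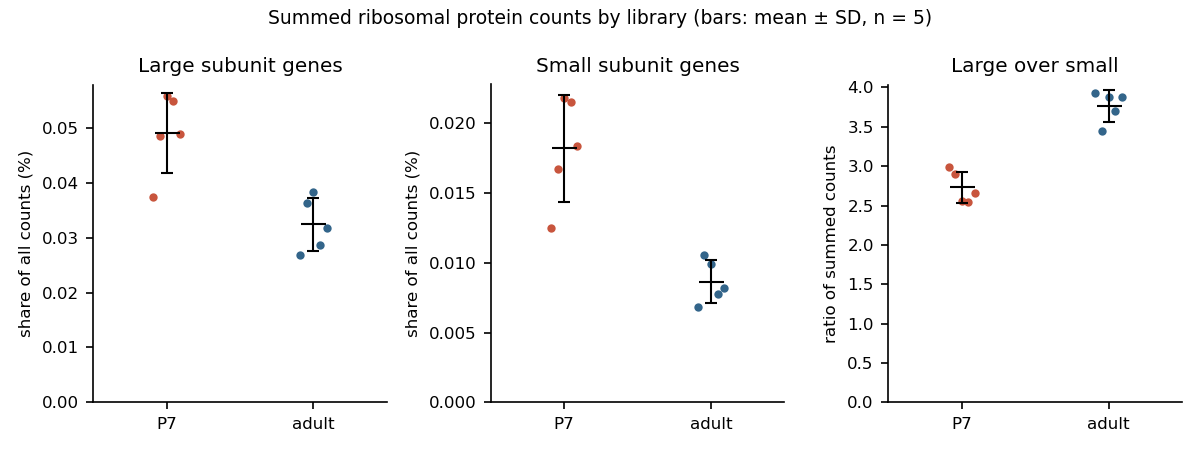
Share of all counts (%) on large subunit genes (left) and small subunit genes (middle) and the ratio of large to small subunit counts (right), 1 point per library at P7 (red) and adult (blue), with mean and SD over 5 libraries. The small subunit shares are apart (0.0125 to 0.0218% and 0.00685 to 0.0106%), the large subunit shares overlap, and the ratio is lower at P7.

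Members that encode short proteins gave few calls. Of 19 tested members with a protein under 120 residues 3 rose and 0 fell, with a median log2 fold change of 0.37, and of 55 with a longer protein 33 rose and 0 fell, with a median of 0.99. The short members that rose were Rplp1, Rps28 and Rps20, and those that did not included Rpl41, Rpl37, Rpl38, Rpl39 and Rps29. Both subunits showed this order, with medians of 0.15 and 0.90 for short and longer large subunit members and 0.73 and 1.11 for small subunit members. Across 74 members with a protein in the annotation, the log2 fold change and the protein length had a Spearman correlation of 0.48 (0.55 in the large and 0.44 in the small subunit), and across 7366 genes one of 0.02. All tested genes with a protein under 120 residues gave 62 higher and 70 lower of 381. Members share their libraries, so this is a description, with no test. For mean level and unique stretches, the correlations with the log2 fold change across the 75 members were -0.01 and 0.02.

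**Figure D4:**
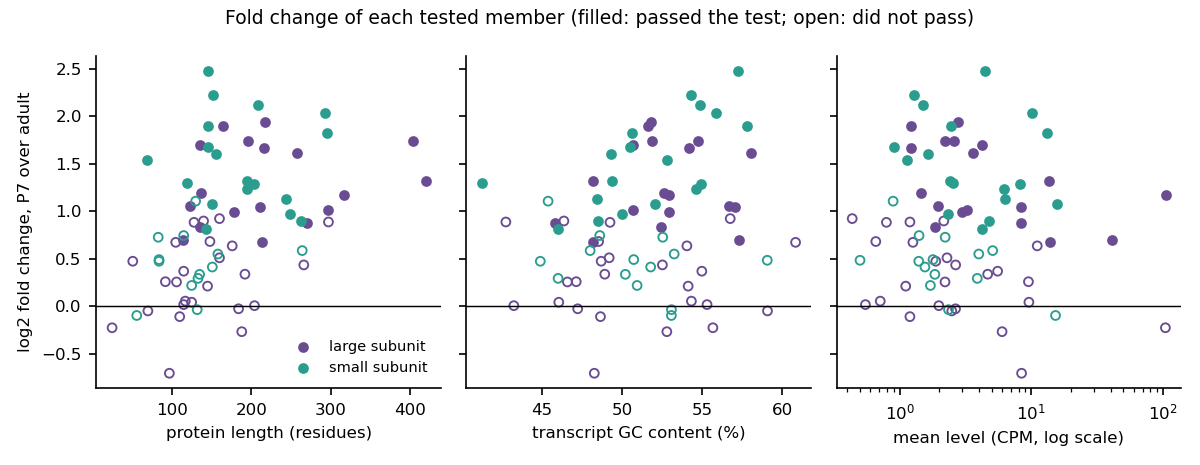
Log2 fold change, P7 over adult (vertical axes), of each tested member against its protein length in residues (left), transcript GC content in percent (middle) and mean CPM on a log scale (right), with filled points for members that passed edgeR's test. Large subunit genes are purple and small subunit genes green. Filled points are few among proteins under 120 residues (3 of 19).

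Genes that work with the ribosome were read beside the members and beside the 13.8% of all tested genes that were higher and the 13.9% that were lower. Of 7 tested genes for other ribosomal or ribosome-bound proteins, 2 were higher, Rack1 among them, and 0 lower. Rack1, a scaffold protein on the head of the small subunit, had 4.75 to 7.84 CPM at P7, against 1.34 to 2.71 CPM in adults and rose by 1.40 ± 0.26 (SE). Fau, a ubiquitin-like protein fused to a small subunit protein, was at 0.22 ± 0.20 (SE) and did not pass.

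Elongation factor genes, many with TOP mRNAs, gave 3 higher and 0 lower of 11, with a median log2 fold change of 0.59. Eef1a1, which brings tRNAs to the ribosome, had 90.1, 98.1, 153, 126 and 102 CPM at P7, against 47.3, 61.8, 78.7, 54.8 and 48.4 CPM in adults and rose by 0.97 ± 0.19 (SE; adjusted p = 0.00178 in edgeR). Its ages did not overlap. Eef2, the translocase, rose by 0.59 ± 0.17 with overlap. TOP mRNAs that encode no ribosomal protein, a list that holds Eef1a1, Eef2 and Rack1 too, gave 6 higher and 2 lower of 21. The lower genes were the initiation factor subunit Eif3h, which fell by 2.63, and the histone chaperone Nap1l1, which fell by 1.46.

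Genes of proteins that bind or signal to TOP mRNAs gave 1 higher and 3 lower of 18. Rps6kb2, an S6 kinase, rose by 1.86 ± 0.22, while Eif4ebp1, an inhibitor of translation that mTOR switches off, fell by 1.66, the RNA-binding Cnbp fell by 0.85 and the kinase Rps6ka3 fell by 1.54. A list of ribosome assembly genes gave 8 higher and 4 lower of 47, to be read against the 13.8% and 13.9% of all genes. Among them were Wdr12 and Wdr43 of the nucleolus at 2.35 and 2.69. Both were near the floor in adults, at means of 0.174 and 0.172 CPM, against 0.926 and 1.13 CPM at P7. They passed the filter on low counts only through their P7 libraries. Rrbp1, a ribosome-binding protein of the endoplasmic reticulum, was at 1.46, and Rrp7a fell by 1.19. Ribosome rescue genes, which free stalled ribosomes, gave 2 higher and 0 lower of 16, a share of higher genes near the 13.8% of all genes, Gtpbp2 at 0.72 and Rnf10 at 0.52, and the rescue factor Hbs1l was at 0.14 ± 0.32 (SE) and did not pass the test. Larp1, which holds TOP mRNAs, and the rescue factor Pelo did not pass the filter on low counts.

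Mitochondrial ribosomal protein genes, which build the separate ribosome of mitochondria, gave 7 higher and 3 lower of 52, with a median log2 fold change of 0.23. The share of higher genes was near the 13.8% of all genes. Their summed level overlapped between the ages, at 169 to 222 CPM at P7, against 168 to 245 CPM in adults. The large subunit of that ribosome gave 5 higher and 2 lower of 34, and the small 2 higher and 1 lower of 18. Mrps11 rose by 1.41 and Mrpl54 by 1.56, and Mrps6 fell by 1.54 and Mrpl10 fell by 1.32.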

How the data were processed

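Platelet mRNA of 5 P7 and 5 adult libraries had been amplified from 1 ng of total RNA (SMARTer), made into Nextera XT libraries from 150 pg of cDNA and read as single ends of 75 nt, per the labels' protocols. The authors deposited whole-number read counts for each gene symbol, unnormalized as far as the values show. The submitters' processing notes name fastp 0.23.1, STAR 2.7.9a, Subread 2.0.1, featureCounts and Salmon 1.5.2. Neither the genome build nor the handling of reads that fit several genes was given in the sources used here.

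Counts were joined by symbol, normalized by TMM and tested with edgeR 4.0.16 (glmQLFit with robust dispersions, R 4.3.3), with age as the only term. Genes were kept by filterByExpr (default settings, a minimum count of 10 and a minimum total of 15), and Benjamini-Hochberg adjustment ran over all 8198 genes tested. Calls were made under an adjusted p of 0.05. Counts per TMM-scaled library (CPM) are such that 3 counts are worth 0.120 to 0.172 CPM. The scripts were tested on simulated data with 200 changed genes. Alternatives were other scalings, DESeq2 1.42.0, limma-voom 3.58.1, other filters, removal of the GC trend of each library (loess, span 0.3), an erythroid covariate, fits of the shared letters and leaving out each library.

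Transcript length, GC content and protein length came from 1 GENCODE M21 transcript per symbol, matched by name for all 85 members, and start sites from RefSeq on GRCm38.p6, matched for 63. Where a symbol had several entries, the one with the longest run was used. A few named genes are not reported here. Protein sequences, and start windows of members on chromosome 18, are not shown.

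Members, gene lists and roles were chosen with earlier results of these data known. Named genes were, in each subunit, up to 10 called members with the smallest p, the 5 most abundant and up to 4 uncalled ones, also by abundance, with the members of the role groups, those that did not pass the filter and a fixed set (Rps2, Rplp0, Rplp1, Rplp2, Rpsa, Rps19, Rpl5, Rpl11, Rpl3, Rps6, Rps27, Rps27l, Rpl36a and Rpl36al). Each neighbouring list gave up to 4 called genes by smallest p, beside Fau, Rack1, Eef1a1, Eef2, Larp1, Pelo and Hbs1l where tested. Others named (such as Rpl37, Rpl10a, Rpl28, Rpl6, Rps16, Rps23 and Rps12) were chosen after their values were seen.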

Additional observations from a re-analysis of the deposited data

Results flagged for a closer look

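Among the named members and the shares and ratios, 68 groups of 5 libraries were checked for a library far from the others, and chance flags about 1 in 20 groups. In adults, Rpl19 stood at 1.78 CPM in H and at 0.716 to 0.985 CPM in A, B, C and G. Rps19 stood at 1.93 CPM in adult G and at 1.07 to 1.32 CPM in the other adult libraries, all under its P7 values. Rps24 stood at 5.70 CPM in adult G, above each P7 library, and at 2.53 to 3.16 CPM in the other adult libraries. Rpl19 and Rps19 kept their calls, and Rps24 its lack of one, without these libraries.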

How the results depend on the processing

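Over 22 alternative fits, 0 members reversed a call in either direction, 58 changes of sign concerned members uncalled in both fits, and 28 of the 36 called members kept their call in the 18 fits other than the erythroid covariate, the filter at 10 CPM and the fits of letters A to C. Uncalled members that passed in at least 1 fit included Rps21, Rpl41, Rpl23 and Rpl37. Higher and lower genes were 20 and 1 in the large subunit and 18 and 0 in the small in DESeq2, 17 and 0, and 18 and 0 in limma-voom, and 15 and 1, and 17 and 0 with the GC trend removed. With the erythroid covariate 0 members of either subunit and 1 of 166 tested genes of the neighbouring lists passed (39 without the covariate), and the cause was not tested. At a mean of at least 10 CPM, where only 6 large and 4 small subunit genes were tested, 5 and 3 were higher, the small subunit median was 1.5 and 12 neighbouring genes passed. The letters A, B and C occur at both ages, but deviations of same-lettered libraries correlated at -0.038, 0.065 and 0.007, so the letters were not taken to pair libraries. With the replicate block these 6 libraries gave 8 higher and 1 lower large and 8 higher small subunit genes, and without it 9, 1 and 9. Leaving out each library gave 14 to 19 higher and 0 to 1 lower large subunit genes (1 lower without P7 I or adult G) and 16 to 18 higher small subunit genes. The difference of the large to small ratio, P7 minus adult, was -1.04, and -1.12 to -0.99 with a library left out. It was -1.26 without the most abundant member of each subunit and -0.33 without Rplp0, Rpl41 and Rplp1, where both ratios are smaller. The mean P7 ratio divided by the mean adult ratio was 0.725 with all members. It was 0.633 without the most abundant member of each subunit and 0.762 without Rplp0, Rpl41 and Rplp1. Low levels limit precision: under 10 CPM, a member that misses the threshold is not shown to be equal.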
